A study of Mus musculus with 4 samples.

Results

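The genes described here encode the replicative DNA helicase and the factors that load and restrain it: the 6 ring subunits Mcm2, Mcm3, Mcm4, Mcm5, Mcm6 and Mcm7, the activation factor Mcm10, the loaders Cdc6 and Cdt1, and the Cdt1 inhibitor geminin (Gmnn). They were taken by name, as all array probes whose transcript accession belongs to 1 of these 10 symbols, which gave 11 of the 55681 probes that were not controls, and 10 of 13918 named genes tested. RNA came from 2 sorted fractions of mouse EB5 embryonic stem (ES) cells that carry a Venus fluorescent reporter of Hoxb6 and had differentiated for 6 days on OP9 stromal feeder cells. Both fractions were positive for Flk-1 (the product of Kdr, a VEGF receptor found on early mesoderm, endothelium and blood progenitors) and differed in the reporter: Flk-1+ Venus-positive cells and Flk-1+ Venus-negative cells, with 2 single-colour Agilent arrays each. Every sample carries the same reporter in the same parental line, no other treatment is labelled, and the labels do not say whether the replicates were separate cultures, so the p-values reflect the variation among these 4 samples alone, which may be technical.

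Replication origins are licensed in G1, when the origin recognition complex, Cdc6 and Cdt1 load the 6-subunit MCM ring onto DNA. In S phase the loaded ring is converted into a moving helicase, a step in which Mcm10 takes part, and geminin binds Cdt1 in S and G2 phase so that no origin is licensed again. Transcription of many of these genes depends on E2F factors, and proliferating embryonic cells are known for high levels of MCM proteins.

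Because the comparison concerns transcript levels of genes known as E2F targets, the promoters were inspected first. RefSeq promoters (build GRCm38.p6, 250 bases before to 50 bases after the transcript start) were matched for 8 of the 10 genes: Mcm2, Mcm3, Mcm5, Mcm6, Mcm7, Mcm10, Cdc6 and Cdt1, with 9 promoters in all because Mcm7 has 2. They were searched on both strands for 3 E2F motifs, TTTCCCGC, TTTGGCGC and TTTCGCGC, and for the CCAAT box. At least 1 E2F motif was present in 6 of the 9 promoters, those of Mcm3, Mcm5, Mcm6, Cdc6 and Cdt1 and 1 of Mcm7, against 1.84% of the 32851 promoters in the table. The CCAAT box was present in 7 of the 9 promoters, against 37.4% of all promoters. Of the 8 genes, Mcm6 had the most E2F matches, 3, lying 110, 106 and 47 bases before the start, of which the first 2 overlap on opposite strands. In Mcm5 the 2 matches also overlap, 153 and 149 bases before the start, and in 1 Mcm7 promoter a TTTCGCGC match overlaps a CCAAT box. Promoters of Mcm2 and Mcm10 held the CCAAT box but none of these 3 E2F strings within the window, and those of Cdc6 and Cdt1 held an E2F string but no CCAAT box.

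Shown here are 4 of these promoters: those of the ring subunits with the lowest and the highest log2 change between fractions (Mcm2 and Mcm3), of the gene with the most E2F matches (Mcm6) and of a loader (Cdc6). They are written 5′ to 3′ on the strand of the gene, with E2F and CCAAT matches on either strand in capitals.
Mcm2, chr6:88898731-88899030, minus strand: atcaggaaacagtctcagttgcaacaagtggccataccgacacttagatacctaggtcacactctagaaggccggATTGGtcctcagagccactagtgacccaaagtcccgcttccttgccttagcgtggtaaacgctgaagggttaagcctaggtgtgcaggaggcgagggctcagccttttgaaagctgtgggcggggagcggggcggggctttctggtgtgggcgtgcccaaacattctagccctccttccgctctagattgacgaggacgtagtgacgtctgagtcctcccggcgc
Mcm3, chr1:20820263-20820562, minus strand: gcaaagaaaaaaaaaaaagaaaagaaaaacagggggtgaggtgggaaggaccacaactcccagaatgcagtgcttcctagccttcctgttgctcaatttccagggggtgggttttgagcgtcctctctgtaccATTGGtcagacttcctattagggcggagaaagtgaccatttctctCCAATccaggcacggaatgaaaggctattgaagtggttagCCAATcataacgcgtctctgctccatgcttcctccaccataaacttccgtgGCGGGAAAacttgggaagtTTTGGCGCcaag
Mcm6, chr1:128359656-128359955, minus strand: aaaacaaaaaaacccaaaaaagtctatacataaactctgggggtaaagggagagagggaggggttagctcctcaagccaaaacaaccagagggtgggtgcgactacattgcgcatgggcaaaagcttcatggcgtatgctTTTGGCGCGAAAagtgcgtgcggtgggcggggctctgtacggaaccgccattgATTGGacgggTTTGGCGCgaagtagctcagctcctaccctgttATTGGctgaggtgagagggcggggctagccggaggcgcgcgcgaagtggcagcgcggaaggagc
Cdc6, chr11:98907901-98908200, plus strand: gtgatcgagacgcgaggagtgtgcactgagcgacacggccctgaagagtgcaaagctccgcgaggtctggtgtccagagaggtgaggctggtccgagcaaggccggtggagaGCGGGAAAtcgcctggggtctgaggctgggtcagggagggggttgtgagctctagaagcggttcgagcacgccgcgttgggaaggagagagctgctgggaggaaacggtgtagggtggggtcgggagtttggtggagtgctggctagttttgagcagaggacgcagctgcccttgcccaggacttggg
A match is a run of letters, and binding by E2F was not measured.

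All 4 arrays were on 1 slide with 1 scan. Arrays with the same replicate number shared a row of the slide, and arrays of the same fraction shared a column, so column and fraction cannot be told apart. Of the spots that were not controls, 50.7% to 53.0% were well above background on each array and none was saturated. Hoxb6 was 2.02-fold higher in Venus-positive cells (log2 change 1.01 ± 0.16 SE), with a limma adjusted p of 0.0715, above the threshold of 0.05. Kdr was bright in both fractions (log2 signal 5.72 and 5.55 on Venus-negative, 6.06 and 6.09 on Venus-positive arrays). Among marker lists, 3 of 12 Flk-1+ mesoderm and endothelial genes were higher in Venus-positive cells by limma, and 8 of 10 primitive streak genes lower. With only probes well above background on all 4 arrays, the counts were 4 of 12 and 7 of 9. In the fit reported, log2 changes were positive for 10 and negative for 2 of the 12 genes, and negative for all 10 streak genes. Among other markers 0 of 11 tested stromal, 0 of 8 ES cell, 1 of 4 endoderm, 0 of 8 blood and 1 of 4 neural genes passed. The 2 genes that passed were lower. In the same order, 9, 6, 3, 5 and 3 of these genes had a negative log2 change. Calls in these lists changed with the processing: with normexp background correction, 2 of the 8 ES cell genes were called lower. Of 12 stromal markers listed, 10 were well above background on all 4 arrays, among them Col1a1, Col1a2 and Col3a1. Postn was well above background on the Venus-positive arrays alone, and Dcn was not tested. The part of these differences in the values below was not tested.

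The comparison asks whether transcripts of the helicase and licensing genes differ between Flk-1+ cells in which the Hoxb6 reporter is on or off. None of the 10 genes passed the threshold. With limma and Benjamini-Hochberg adjustment over 23540 genes and unnamed probes (threshold 0.05), 2.14% of features were called (0.777% higher and 1.36% lower in Venus-positive cells), and the lowest adjusted p among the 10 genes was 0.201. At an unadjusted p under 0.05, 1 gene, Mcm2, was lower, where 11.4% of all features were lower and 12.3% higher. The log2 changes, Venus-positive minus Venus-negative, lay between -0.30 and 0.11. None reached a factor of 2 in either direction, against 8.04% of all features.

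All 11 probes were well above background on all 4 arrays, with 1 spot each per array and 0 spots marked as outliers. With 1 probe per gene, the 95% intervals from limma reached at most 1.51-fold lower (Mcm2) and 1.33-fold higher (Mcm3) levels in Venus-positive cells. That of the dimmer Cdc6 probe, from the fit over all probes, reached 1.40-fold higher. The interval held 0 for 9 of the 10 genes, Mcm2 (-0.59 to -0.01) being the exception. For the other ring subunits it ran from -0.18 to 0.41 (Mcm3), -0.53 to 0.07 (Mcm4), -0.59 to 0.17 (Mcm5), -0.43 to 0.11 (Mcm6) and -0.57 to 0.08 (Mcm7). For the licensing factors it ran from -0.58 to 0.37 (Mcm10), -0.46 to 0.31 (Cdc6), -0.57 to 0.16 (Cdt1) and -0.38 to 0.27 (Gmnn). In absolute log2 change, 8 of the 10 genes lay under the median of all features, 0.23. A p above the threshold does not show equal levels, and with 2 arrays a fraction each log2 change carried a standard error of 0.10 to 0.17.

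The log2 change was negative for 9 of the 10 genes, with a median of -0.19, where 49.6% of all features were negative and the median of all features was below 0.01 in size. The sign of so small a change depends on the scaling of the arrays: without scaling, the median of all features moved to 0.16, that of the 10 genes to -0.028, and 6 of the 10 genes kept a negative sign, with Mcm10, Cdc6 and Gmnn turning positive. Scaling shifts all genes of an array alike and so cannot change a gene's place relative to the median of all features, below which 9 of the 10 genes lay. With dim probes kept, where the median of all features was -0.17, that count was 5. It was 6 when Venus-negative replicate 1 was left out, and 8 when replicate 2 of the Venus-positive fraction was.

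**Figure D1:**
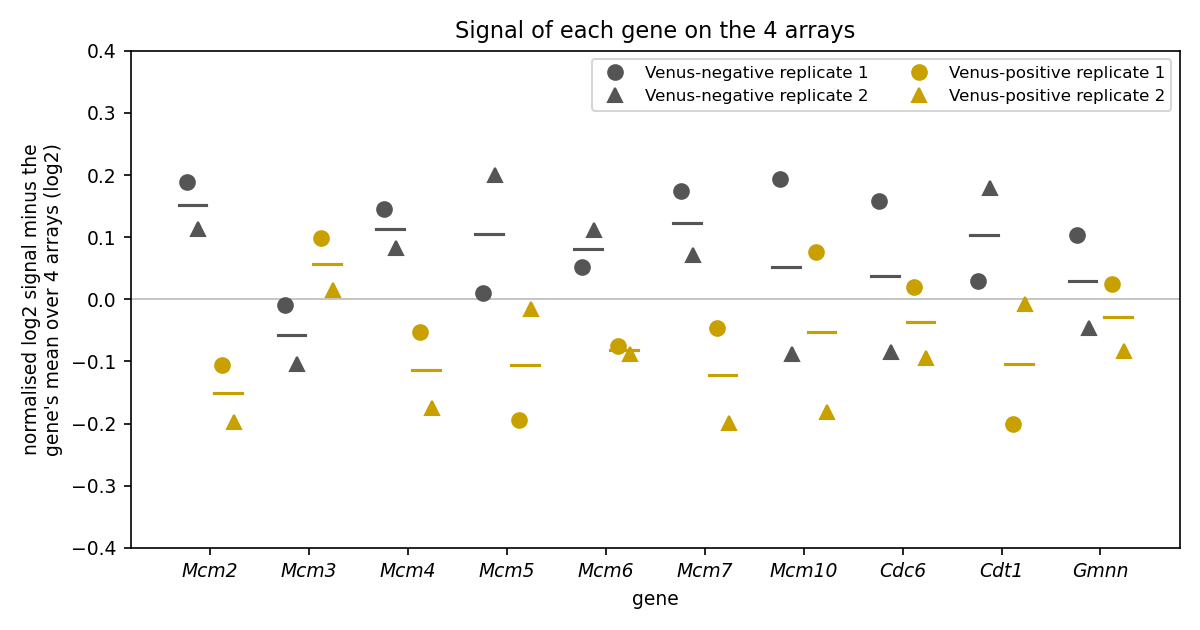
Normalised log2 signal of the 10 genes on the 4 arrays, each gene as its difference from its own mean over the arrays. Circles and triangles are replicates 1 and 2, grey is Venus-negative, yellow is Venus-positive, and bars are the means of 2 arrays. Every point lies within about 0.2 of the gene's mean. Mcm3 alone has the Venus-positive points above both Venus-negative ones, and the fractions overlap for Mcm10, Cdc6 and Gmnn.

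The ring subunits were considered first. Each MCM ring holds them in equal number, and Mcm2 is the subunit that also carries a histone-binding tail. The processed signal of Mcm2 was 7744 and 6454 on the Venus-negative arrays and 6855 and 5969 on the Venus-positive arrays. After scaling, which divides each array by its 75th percentile signal, the normalised log2 signals were 4.29 and 4.22 in Venus-negative and 3.998 and 3.906 in Venus-positive cells, and the fractions did not overlap. The log2 change was -0.30 ± 0.10 SE, a level 1.23-fold lower in Venus-positive cells, with an unadjusted p of 0.0451 and a limma adjusted p of 0.201.

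Mcm3 was the only subunit with a higher mean in Venus-positive cells. Its processed signal was 15021 and 12342 in Venus-negative and 17570 and 15378 in Venus-positive cells, or 5.25 and 5.15 against 5.36 and 5.27 on the normalised log2 scale. The fractions did not overlap, but the gap between the nearest arrays was small beside the spread of the replicates, and the log2 change of 0.11 ± 0.10 SE had a limma adjusted p of 0.563.

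Mcm4, Mcm6 and Mcm7 form the subcomplex with helicase activity of its own. The normalised log2 signal of Mcm4 was 5.98 and 5.92 in Venus-negative and 5.78 and 5.66 in Venus-positive cells. That of Mcm6 was 6.998 and 7.06 against 6.87 and 6.86, the closest agreement of Venus-positive replicates among the 10 genes (SD 0.0082, n = 2). That of Mcm7 was 6.46 and 6.36 against 6.24 and 6.09. In each of these genes both Venus-positive arrays lay below both Venus-negative arrays, by log2 changes of -0.23 ± 0.11 SE (Mcm4), -0.16 ± 0.10 (Mcm6) and -0.24 ± 0.11 (Mcm7). Their limma adjusted p-values were 0.297, 0.384 and 0.299.

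Mcm5, which with Mcm2 forms the gate through which the ring opens onto DNA, had normalised log2 signals of 5.34 and 5.53 in Venus-negative and 5.14 and 5.32 in Venus-positive cells. Before scaling its signal was nearly level, at 16057 and 16067 in Venus-negative against 15110 and 15877 in Venus-positive cells. The fractions were separated by a narrow margin, and the log2 change of -0.21 ± 0.13 SE had a limma adjusted p of 0.413.

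With each gene centred on its own mean, Mcm3 minus the mean of the other 5 was -0.12 and -0.22 on the Venus-negative arrays and 0.19 and 0.15 on the Venus-positive arrays, a contrast that scaling of the arrays does not affect. The contrast was singled out after the values were seen and was not tested, and the log2 change of Mcm3 itself did not pass. The largest and smallest changes of the 10 genes, those of Mcm3 and Mcm2, were 0.42 apart on the log2 scale.

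**Figure D2:**
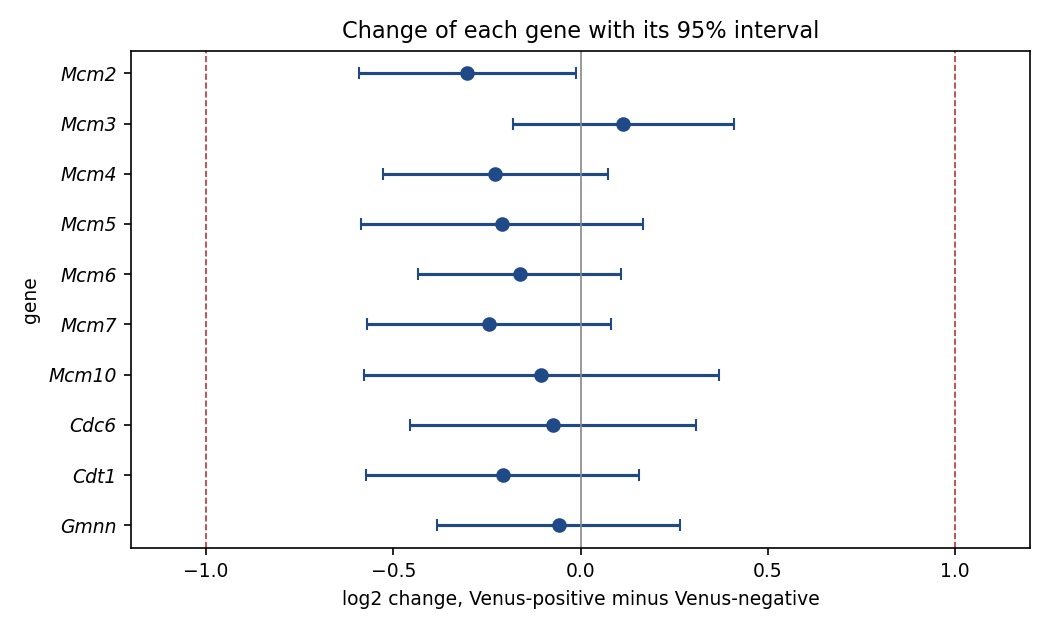
Log2 change of each gene, Venus-positive minus Venus-negative, with its 95% interval from limma (2 arrays a fraction). Dashed lines mark a 2-fold change. All intervals stay inside those lines, and that of Mcm2 alone leaves out 0. Without scaling between arrays Mcm10, Cdc6 and Gmnn have positive values.

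The loaders came next. The normalised log2 signal of Cdt1, which brings the MCM ring to the origin, was 5.96 and 6.11 in Venus-negative and 5.73 and 5.92 in Venus-positive cells. The fractions did not overlap, and the log2 change was -0.21 ± 0.13 SE (limma adjusted p = 0.403). Cdc6, the ATPase that joins the origin recognition complex in loading, had 2 probes for the same transcript accession. The brighter, which represents the gene, gave 1.17 and 0.92 in Venus-negative and 1.03 and 0.91 in Venus-positive cells, and a log2 change of -0.07 ± 0.13 SE (limma adjusted p = 0.781). The other gave 0.87 and 0.54 against 0.79 and 0.73, and a log2 change of 0.05 ± 0.15 SE (adjusted p = 0.867, limma over all probes). The fractions overlapped on both probes and the probes differed in sign, so no direction is given for Cdc6.

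The regulator and the activation factor also overlapped between fractions. In normalised signal of both genes, each Venus-positive array lay below the Venus-negative array of the same replicate number. Geminin had processed signals of 1972 and 1560 in Venus-negative and 2025 and 1743 in Venus-positive cells. On the normalised log2 scale these were 2.32 and 2.17 against 2.24 and 2.13, a log2 change of -0.06 ± 0.11 SE (limma adjusted p = 0.796), the smallest in size of the 10 genes. On the representing probes Mcm10 varied most between replicates, at 4.36 and 4.08 in Venus-negative and 4.24 and 3.99 in Venus-positive cells. Its log2 change of -0.10 ± 0.17 SE (limma adjusted p = 0.748) was smaller than the difference between replicates in either fraction, 0.28 and 0.26. That difference had the same sense in both fractions. With the replicate number as a block, the SE was 0.08 (limma adjusted p = 0.436). The labels do not say that a number marks a shared culture.

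In all, the 2 fractions did not overlap for 7 of the 10 genes, near the 57.5% found for all features. The 10 genes varied less than the features at large. Their replicates differed by a median of 0.13 (Venus-negative) and 0.12 (Venus-positive) in absolute log2 signal, against 0.18 and 0.16 over all features. The median absolute change of the 10 genes between fractions was 0.19, against 0.23. All features include dimmer probes, and a comparison at like signal was not made. Replicates of both fractions deviated in the same sense for several genes. Mcm5 and Cdt1 were lower on the first than on the second array of each fraction, whereas Mcm2, Mcm3, Mcm4, Mcm7, Mcm10, Cdc6 and Gmnn were higher on it. The first array was the higher for 7 of the 10 genes in Venus-negative and 8 of the 10 in Venus-positive cells, against 44.4% and 50.3% of all features. Since row on the slide and replicate number coincide, the part of either was not tested.

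By the distance between profiles over the 4 arrays, with each gene centred on its own mean, the 5 named genes nearest to the median profile of the 10 genes were Zfyve27, Taf9, Ccdc174, Gemin4 and Ccin, at Euclidean distances of 0.0315 to 0.0341 on the log2 scale among 13211 candidates. Their log2 changes were -0.16 to -0.18. Of the 10 genes themselves, Mcm6 was nearest to that profile, with 393 other genes nearer, and Mcm3 farthest, with 4570 nearer, so this flat profile was shared widely.

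The other genes of the replication pathway were followed in 7 lists that hold 87 genes, of which 83 were tested. By limma 0 of the 83 passed over all features, in either direction. Without adjustment, p was under 0.05 for 8 genes with a positive and 2 with a negative log2 change, or 9.64% and 2.41% of the 83, against 12.3% and 11.4% of all features. Under each of 3 alternatives 1 of the 83 genes passed: Dna2 was higher with normexp background correction (adjusted p = 0.0424), Ccne1 lower with the signal-dependent variance prior (0.0381) and E2f2 higher without scaling between arrays (0.0468). In that order, these fits called 596, 731 and 493 of all 23540 features higher and 700, 923 and 359 lower.

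Of the origin recognition complex, all 6 subunits were measured, with a median log2 change of -0.11. The 2 largest were Orc4 at 0.46 ± 0.16 SE (limma adjusted p = 0.203) and Orc3 at -0.31 ± 0.11 (adjusted p = 0.227). Of the MCM relatives and partners, 3 of 4 were tested, with a median of -0.15. They include Mcm9, a helicase of recombination, at -0.19 ± 0.14 SE, and Mcmbp, which binds the MCM subunits, at -0.15 ± 0.11. Of 13 genes of helicase activation and origin firing, the median was 0.03. Dbf4, the regulatory subunit of the kinase that phosphorylates the MCM ring, stood at 0.51 ± 0.20 SE (limma adjusted p = 0.246) and Ticrr, an origin firing factor, at 0.41 ± 0.19 (adjusted p = 0.304).

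Of 9 tested genes that control Cdt1 and geminin, the median log2 change was 0.09. The largest values were those of Fzr1, an activator of the anaphase-promoting complex that marks geminin for destruction, at 0.34 ± 0.13 SE (limma adjusted p = 0.241), and of Fbxo5, its inhibitor, at 0.25 ± 0.14 (adjusted p = 0.381). The 27 polymerase and fork genes had a median of -0.03, with Dna2, a nuclease of lagging-strand processing, at 0.78 ± 0.17 SE (limma adjusted p = 0.115) and Pold4, a small polymerase subunit, at 0.37 ± 0.10 (adjusted p = 0.148). The 12 tested genes of nucleotide supply and S-phase entry had a median of 0.01. The 2 largest were Ccne1, cyclin E1 of the G1/S transition, at -0.76 ± 0.15 SE (limma adjusted p = 0.0997) and Ccna2, cyclin A2 of S and G2 phase, at 0.56 ± 0.21 (adjusted p = 0.232). The 13 E2F and pocket protein genes had a median of 0.09. E2f2, an activating E2F, stood at 0.86 ± 0.18 SE (limma adjusted p = 0.110), and E2f4, mainly a repressor, at -0.75 ± 0.30 (adjusted p = 0.247).

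Mitotic genes had larger values than the licensing genes. Of 18 listed, 17 were tested, 17 had a positive log2 change (16 without Venus-positive replicate 1 or with all probes of a gene averaged), and the median was 0.60, against -0.19 for the licensing genes. Over all features 0 passed in limma, and 9 had an unadjusted p under 0.05, all higher, where 12.3% of all features were higher. Under alternatives, Mki67, a marker of cycling cells named here for its calls, passed with normexp background correction (adjusted p = 0.0397) and with the signal-dependent variance prior (0.0276), and Cenpe with that prior (0.0458). Both genes were higher, where these fits called 596 and 731 of all 23540 features higher. Cdk1, the kinase of mitotic entry, stood at 0.91 ± 0.22 SE (limma adjusted p = 0.125) and Cenpe, a kinetochore motor, at 0.91 ± 0.19 (adjusted p = 0.110). The median of the mitotic genes rested in part on 1 array: it was 0.38 without Venus-negative replicate 2 and 0.89 without Venus-negative replicate 1, while that of the licensing genes stayed between -0.19 and -0.15 whichever array was left out. The difference between the lists was not tested.

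**Figure D3:**
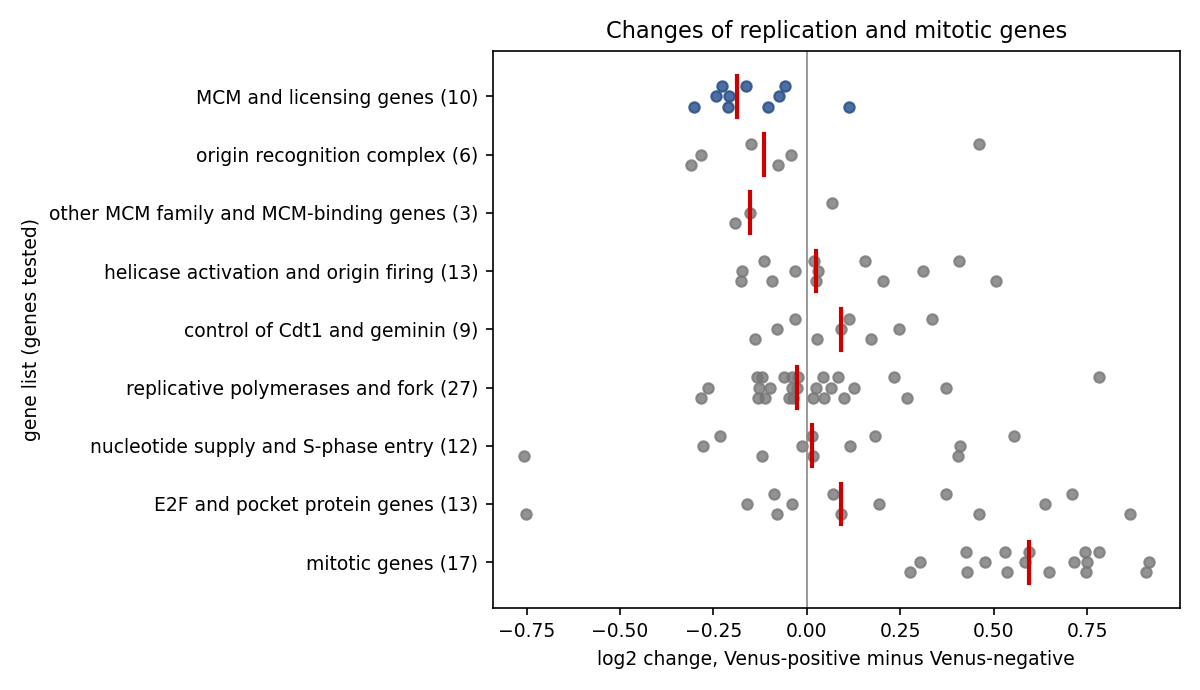
Log2 change, Venus-positive minus Venus-negative, of each tested gene (points) of the 10 MCM and licensing genes and of 8 lists of other replication and mitotic genes, with the list's median as a red bar. The MCM and licensing genes lie between -0.30 and 0.11 with a median of -0.19, and all 17 mitotic genes lie above 0. Without scaling between arrays the medians are -0.028 and 0.75.

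Other ways of processing left the absence of calls among the 10 genes as it was. Fits with dim probes kept or with 1 array left out cannot decide this, because calls over all features were lost too. The value table differs by a constant per array and returns the reported fit. In 15 alternatives the lowest adjusted p of any of the 10 genes was 0.0930 (Mcm2, with a signal-dependent variance prior). Under that prior 4 of the 10 genes had a limma unadjusted p under 0.05. Of all 23540 features, 3078 were higher and 3028 lower at that level. For the 9 genes with 1 probe, 6 of the 15 leave the log2 change itself as it was and alter at most its error or adjustment. In the other 9, Mcm3 stayed positive and Mcm2, Mcm4, Mcm5, Mcm6, Mcm7 and Cdt1 negative, although Mcm6 came within 0.01 of 0 without scaling between arrays.

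**Figure D4:**
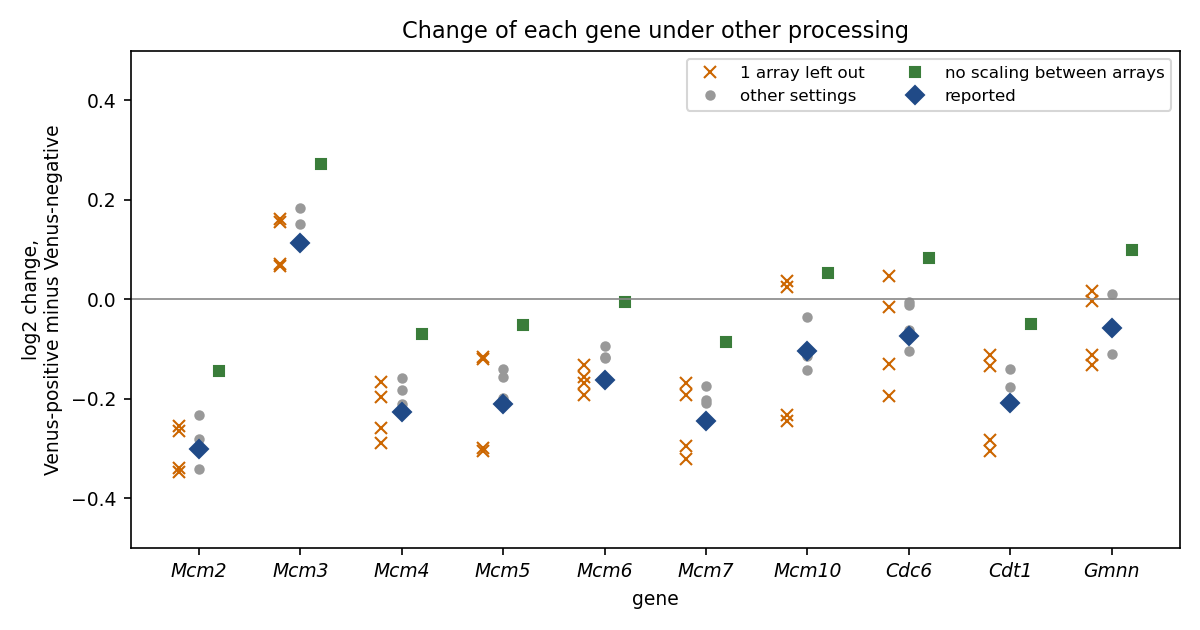
Log2 change of each gene as reported (diamonds), with 1 array left out (crosses), without scaling between arrays (squares) and under the other settings (dots). Mcm2 ranges from -0.35 to -0.14 and Mcm3 from 0.07 to 0.27. Mcm10, Cdc6 and Gmnn cross 0 with 1 array left out or without scaling.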

How the data were processed

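The 4 deposited scanner tables give an intensity for every spot, which per the file headers came from version 10.10.1.1 of Agilent Feature Extraction and is background-subtracted and spatially detrended, with no scaling between arrays. The authors' deposited value table holds the same intensity values times 1 constant per array (2.15, 2.44, 1.98 and 2.11). The genes, lists and tests were chosen with earlier results of these data known. Control and outlier spots were left out, log2 signals were centred on each array's 75th percentile (signals of 396, 347, 429 and 398), and a probe was kept if both arrays of either fraction were well above background. Accessions were matched without version to RefSeq (GRCm38.p6): 27235 of 55681 probes had 1 symbol. The probe with the highest mean signal represented a gene, leaving 13918 genes and 9622 unnamed probes. limma 3.58.1 in R 4.3.3 (lmFit, eBayes; 2 residual and 1.8 prior degrees of freedom) was tested on simulated data; adjustment was Benjamini-Hochberg over all features. The number of arrays limits the precision. Signals of different probes are not comparable. Named outside the 10 genes were the 2 largest changes of each list, the 5 nearest profiles and the sorting markers Hoxb6 and Kdr. No list gene of replication or mitosis was called in the fit reported. Single stromal genes were named after their values were seen. Alternatives were normexp background correction on the median foreground and background signals (offset 50), other centring, quantile normalisation, other filters, a signal-dependent variance prior, the value table, the mean of all probes of a gene, a replicate block and leaving out each array. Protein sequences were not used here.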

Additional observations from a re-analysis of the deposited data

How the results depend on the processing

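None of the 10 genes was called under 15 alternatives. Of their 150 log2 changes, 59 equalled the reported value, because the value table, both other filters, the variance prior, the replicate block and, for genes with 1 probe, the mean of probes leave it as it is. Of the 91 that moved, 83 kept their sign and 8 turned. All 8 became slightly positive. Without Venus-negative replicate 1 they were Mcm10 (0.036), Cdc6 (0.048) and Gmnn (0.016), and without Venus-positive replicate 2 Mcm10 (0.024). Without scaling between arrays, an alternative chosen after seeing the data, they were Mcm10 (0.053), Cdc6 (0.084) and Gmnn (0.099), and with arrays centred on the median of all spots, also chosen after seeing the data, Gmnn (0.011). Over the 4 fits with 1 array left out, log2 changes ran from -0.25 to 0.036 for Mcm10, from -0.20 to 0.048 for Cdc6 and from -0.13 to 0.016 for Gmnn. The median of the 10 genes was -0.028 without scaling, where the median of all features was 0.16, and -0.19 to -0.15 with 1 array left out. The calls over all features (183 higher, 320 lower) changed more: 596 and 700 with normexp, 731 and 923 with a signal-dependent prior, 390 and 544 with the replicate block, 493 and 359 without scaling, 351 and 376 with arrays centred on the median of all spots, 248 and 311 with probes well above background on all 4 arrays, and 0 and 0 in limma with dim probes kept (2899 and 3641 at an unadjusted p under 0.05) or with any 1 of the 4 arrays left out (1690 to 2512 and 1720 to 2165). A lone array was then assumed to vary like the other fraction. With dim probes kept, the median of all features was -0.17, and 5 of the 10 genes lay below it. The labels do not say that a replicate number marks a shared culture. Deviations of same-numbered arrays correlated at 0.41 over 23540 features, and with the number as a block 0 of the 10 genes were called (lowest adjusted p 0.130). Among other replication and mitotic genes, calls arose with normexp (Dna2 and Mki67), the signal-dependent prior (Ccne1, Mki67 and Cenpe) and without scaling (E2f2). The causes were not tested.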
